A study of Caenorhabditis elegans with 4 samples.

Results

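Chromosome III is one of the autosomes of the nematode Caenorhabditis elegans, and the regions described here are all peaks of RNA polymerase II (Pol II) that the deposited list places on it. There were 1896 such peaks among the 10731 of the whole list, taken by chromosome name without regard to strength or width. The peaks come from chromatin immunoprecipitation followed by sequencing (ChIP-seq) in wild-type N2 hermaphrodites at the L4 larval stage, grown at 20 °C and crosslinked with 2% formaldehyde. N2 is the standard laboratory strain, and both groups carried the same genotype with no transgene named. The 4 samples were 2 ChIP samples, labelled with the mouse monoclonal antibody 8WG16, and 2 samples of input DNA, which is chromatin taken before immunoprecipitation. Whole worms were used, so a peak can come from any of their tissues, and a signal in many cells cannot be told apart from a strong signal in few. The samples' protocol text mentions embryos and antibodies to GFP. It differs there from the fields for stage and antibody, which were followed here.

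Pol II transcribes the protein-coding genes. The antibody 8WG16 recognises the repeated tail of its largest subunit, encoded in the worm by ama-1. A peak therefore marks DNA called as enriched for the enzyme, which is not a direct measure of how much was bound. How equally the antibody reports enzyme waiting near a gene start and enzyme moving through a gene was not tested here. Many worm genes lie close together and some are transcribed jointly as operons, so that neighbouring peaks need not belong to separate transcription units. Worm autosomes are known to have a gene-rich central region of little recombination and more recombining, repeat-rich arms. Chromosome III is known for carrying a cluster of Hox genes, which pattern the body axis, and both Notch receptor genes, lin-12 and glp-1, and its meiotic pairing centre lies near the left end. No peak was assigned to a gene, because positions are in WormBase build WS190 and the gene table at hand belongs to a later assembly.

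The list gives one q-value per peak, which is a p-value corrected for multiple testing and is the authors' own value. Strength below means −log10 of that q-value, so that larger values are stronger. It is a measure of statistical confidence and not of the amount of Pol II bound. Both ChIP samples were combined before the peaks were listed, so there is no spread between replicates and no test of any difference, and depth is unknown. Intervals in this text are exact 95% binomial intervals that cover counting error only. They treat peaks as independent, which neighbouring peaks are not, and are therefore too narrow.

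Chromosome III was dense in Pol II peaks. Its span, taken to the end of its last listed peak, was 13.8 Mb, or 13.8% of the 100.1 Mb spanned by all chromosomes, and it carried 17.7% of the list. That gave 137.7 peaks per Mb against 107.2 for the whole list. Chromosome I, which was not among the comparison chromosomes, was denser at 174.9. The density of III was 1.20-fold that of II (counting interval 1.12 to 1.28), 1.26-fold that of IV (1.18 to 1.35) and 2.00-fold that of V (1.86 to 2.14). In covered length the distances were smaller. Peaks covered 1256 kb of III, or 9.12% of its span, which was 1.13-fold the share of II, 1.09-fold that of IV and 1.46-fold that of V. Peaks on III were shorter than those of IV and V. The median width was 367 bp (351 to 383) on III and 394 bp (374 to 416) on II. It was higher on IV, with 442.5 bp (421 to 467), and on V, with 512.5 bp (480 to 541). The intervals of III and II overlap, which does not decide whether their medians differ beyond counting error, because the difference was given no interval.

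The widths on III ran from 1 bp to 9912 bp, with quartiles at 205 and 704 bp. The covered length was unevenly shared among the peaks. The widest decile, 189 peaks, held 44.1% of the covered length, whereas the narrower 948 peaks held 14.9%. There were 121 peaks of at least 2 kb, 6.38% of the peaks on III, and these made up 35.0% of its covered length. Per Mb, such wide peaks numbered 8.78 on III, 7.79 on II, 9.16 on IV and 7.34 on V. The excess of III over IV in peak number was therefore not shared by the wide peaks, for which III stood at 0.959-fold of IV. In each class below 1000 bp III had more peaks per Mb than IV, and from 1000 bp to under 2000 bp it had 12.6 against 14.2. Peaks from 100 bp to under 250 bp numbered 32.7 per Mb on III, 23.9 on II, 20.5 on IV and 10.4 on V. Peaks narrower than 100 bp numbered 179 on III, of which 2 were a single base pair long.

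Strength on III ran from 2.02 to 290.5, and the median was 5.62 (5.35 to 5.97). That of II was also 5.62 (5.28 to 5.83), that of IV was 5.42 (5.20 to 5.81) and that of V was 4.77 (4.51 to 5.06). The medians of III, II and IV thus lay within each other's counting intervals, and that of V lay lower. A strength of at least 10 was reached by 524 peaks on III (27.6%), of at least 50 by 101 (5.33%), of at least 100 by 40 (2.11%) and of at least 200 by 13 (0.686%). The shares reaching 100 were similar on II at 2.11% and IV at 2.31%, and V had 3.13%. Per Mb, peaks reaching 100 numbered 2.90 on III, 2.42 on II, 2.52 on IV and 2.16 on V.

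Chromosome III contributed to every decile of strength of the list, with shares between 15.5% and 21.1%. Of the strongest decile of the whole list, 178 of 1074 peaks lay on III, or 16.6% (14.4 to 18.9). Its share of the 100 strongest was 19% (11.8 to 28.1). Both intervals include the 17.7% that III holds of all peaks, which does not show that the shares are equal. Over the 10 deciles its share was lowest in the weakest, at 15.5% (13.4 to 17.8), and highest in decile 4, at 21.1% (18.7 to 23.6). Decile 4 spans strengths from 6.96 to 9.52, where III had 226 peaks with a median width of 453 bp, and its interval lies above 17.7%. With 10 deciles and peaks that are not independent, an interval that misses the overall share once is not a test.

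Width and strength went together on III. Across the 1896 peaks Spearman's rho was 0.74, the same to 2 decimals as on IV, with 0.70 on II and 0.69 on V. The points share one list and one caller. The q-value of a region may itself depend on the width of the region, which was not tested, so rho is given as a description. The median strength rose from 2.99 in peaks narrower than 100 bp through 5.69 from 250 bp to under 500 bp to 73.3 in peaks of at least 2 kb. The median of III was above those of IV and V in every width class, but the intervals did not always lie apart. Widths were not matched within a class, and the widest class had no upper limit. In that class 21 of 121 peaks on III reached 5 kb, against 18 of 160 on IV and 27 of 153 on V. Overlapping intervals do not show that a difference lies within counting error, and the differences were given no interval. The intervals of III and IV overlapped below 100 bp, from 500 bp to under 1000 bp and from 1000 bp to under 2000 bp, and those of III and V overlapped below 100 bp and from 2000 bp. From 250 bp to under 500 bp the median was 5.69 (5.39 to 6.09) on III. It was 5.36 (5.06 to 5.71) on II, and IV had 4.92 (4.64 to 5.14) and V had 3.97 (3.70 to 4.30). Among peaks of at least 2 kb it was 73.3 (63.3 to 82.0) on III. There II had 58.4 (45.7 to 75.6), IV had 45.5 (39.0 to 58.6) and V had 50.7 (40.9 to 64.0). III lay above II in each class but that from 1000 bp to under 2000 bp, where III had 19.8 (17.2 to 24.3) and II had 21.9 (17.4 to 25.3). The intervals of III and II overlapped in each of the 6 classes. Whether the calling threshold was the same on every chromosome was not tested.

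**Figure D1:**
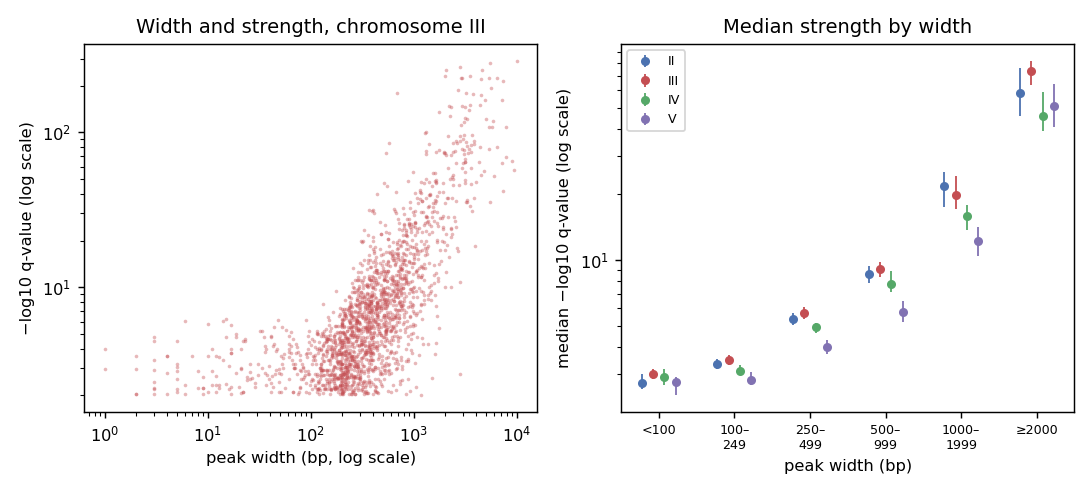
Left, each point is 1 of the 1896 peaks on chromosome III, with its width in bp and its −log10 q-value, both on log axes. Right, the median −log10 q-value by width class on II, III, IV and V, on a log axis, with bars for the exact 95% binomial interval of the median; the medians of III rise from 2.99 to 73.3 and lie above those of IV and V in each class.

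Pol II peaks lay more evenly along III than along II, IV and V when peaks were counted. In the 13 full bins of 1 Mb the counts were 92, 108, 110, 153, 135, 177, 139, 155, 182, 139, 124, 136 and 121 from left to right. The fullest bin held 1.98 times the peaks of the emptiest one, against 4.88 times on II, 3.66 on IV and 4.24 on V. The coefficient of variation, which is the SD over bins divided by their mean, was 0.192 on III, 0.352 on II, 0.284 on IV and 0.383 on V. Counting alone would give 0.0857 on III, 0.0935 on II, 0.0957 on IV and 0.121 on V, so the denser chromosome has a small advantage. With that variance taken off, the values were 0.172, 0.339, 0.267 and 0.363 in the same order. In bins of 250 kb the coefficient was 0.310 on III, 0.443 on II, 0.416 on IV and 0.575 on V.

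The evenness did not extend to covered length. Over the same 1 Mb bins the coefficient of variation of the length inside peaks was 0.281 on III, 0.266 on II, 0.273 on IV and 0.370 on V. By this measure III was no more even than II and IV. On III peaks covered between 5.04% and 12.3% of a bin, while the number of peaks varied from 92 to 182. Bins with more peaks had more covered length, with a Spearman's rho of 0.78 over the 13 bins, which share one chromosome and one list. Covered length is largely made up of the peaks counted, so a positive rho is built in. Against the median width of a bin, its number of peaks had a rho of 0.09.

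**Figure D2:**
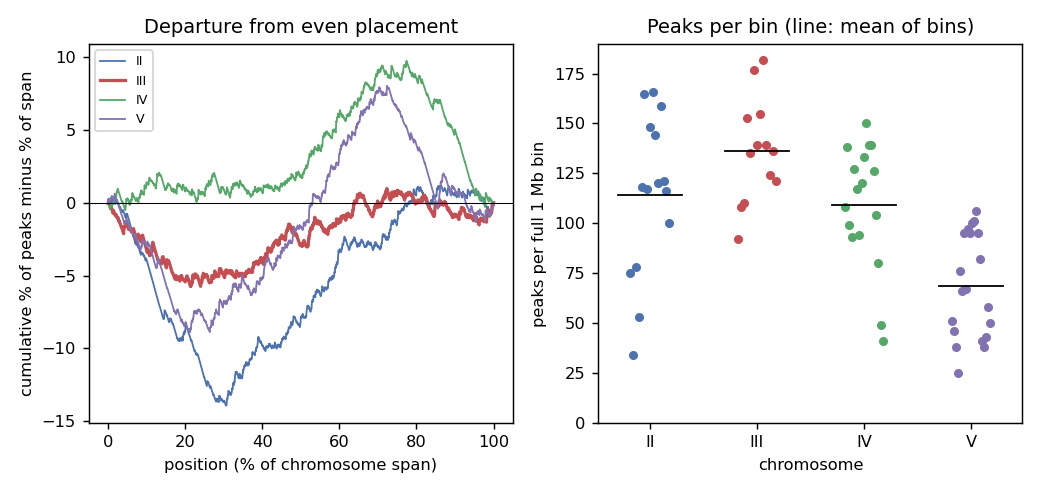
Left, the cumulative percentage of peaks minus the percentage of the chromosome span passed, for II, III, IV and V, where even placement would lie at 0; the largest departure is 5.80 percentage points on III and 14.0 on II. Right, each point is the number of peaks in 1 full bin of 1 Mb and the line is the mean of the bins; those of III run from 92 to 182.

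By cumulative position III again departed least from even placement among II, III, IV and V, while II, IV and V changed places. On III the lower quartile of the peak midpoints lay at 30.1% of the span, the median at 52.3% and the upper quartile at 74.3%. The largest departure from even placement along III was 5.80 percentage points, compared with 14.0 on II, 9.72 on IV and 8.97 on V. On X, which was not among the comparison chromosomes, it was smaller still, at 5.35. The counts of neighbouring 250 kb bins were weakly related on III, with a correlation of 0.10 over the 55 full bins, against 0.58 on II, 0.24 on IV and 0.33 on V. The correlation does not measure how large the steps between neighbouring bins were. One pair on III, picked after the counts were seen, had 57 peaks between 8750001 and 9000000 and 18 between 9000001 and 9250000. Large steps were not particular to III: on V, bins with 1 and 39 peaks lay side by side.

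The left end of III was its sparsest stretch. The first 3 bins of 1 Mb held 92, 108 and 110 peaks, and the 10 full bins after them held between 121 and 182. Their covered length was 5.04%, 5.40% and 5.86%, below the lowest of the others at 7.20%. A boundary at 3 Mb was chosen after these counts were seen, and the values on either side are a description. The first 3 Mb had 103.3 peaks per Mb and 5.44% of its length in peaks, whereas the rest of III had 147.2 peaks per Mb and 10.1%. Wide peaks of at least 2 kb were scarcest there, with 10 on the left (3.33 per Mb) and 111 on the rest (10.3 per Mb). Peaks of the strongest decile of the list numbered 20 (6.67 per Mb) on the left and 158 (14.7 per Mb) on the rest. The median width differed little, with 350 bp and 370 bp, and the median strength was 4.66 and 5.84.

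The right end of III was not sparse. Its last 2 Mb held 278 peaks (139 per Mb), with a median strength of 5.70 and 20 peaks of at least 2 kb, while the first 2 Mb held 200 (100 per Mb), with 4.90 and 7. The bin from 13500001 to 13750000, close to the end of the span, was the second fullest of 250 kb on III, with 56 peaks, 17.8% of its length in peaks and 10 peaks of the strongest decile. On the comparison chromosomes a sparse end was sparser still: the first 2 Mb of II had 54.5 peaks per Mb, the last 2 Mb of IV had 57.5 and the first 2 Mb of V had 48.5.

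**Figure D3:**
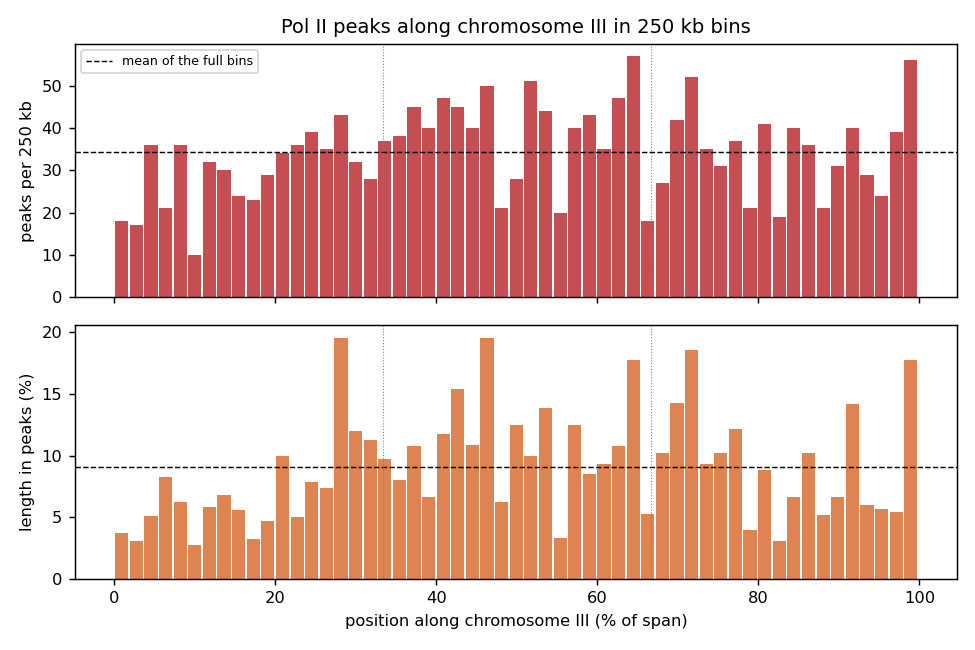
Number of Pol II peaks (top) and percentage of length inside peaks (bottom) in the 55 full 250 kb bins of chromosome III, by position as a percentage of the span; dashed lines are the means of the bins and dotted lines divide the span into 3 equal segments. Counts run from 10 to 57 and covered length from 2.75% to 19.6%, with low values at the left end.

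By 3 equal segments of 4.59 Mb, the left held 541 peaks, the middle 724 and the right 631. The middle segment had 157.7 peaks per Mb, the right 137.4 and the left 117.8. The middle therefore stood at 1.24-fold the outer segments (counting interval 1.12 to 1.36), and the left at 0.857-fold the right (0.763 to 0.963). For comparison, the same ratio on IV was 1.35 (1.23 to 1.48). It was 1.45 (1.32 to 1.60) on II, whereas V had 1.67 (1.502 to 1.85). The densest segment of III exceeded its sparsest by 1.34-fold, against 1.94-fold on II, 1.60-fold on IV and 1.69-fold on V.

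Peaks in the 3 segments of III were alike in width. The medians were 370 bp (331 to 394) on the left, 366 bp (343 to 399) in the middle and 367 bp (338 to 393) on the right. Strength varied a little more, with medians of 5.21 (4.74 to 5.63), 5.92 (5.52 to 6.38) and 5.72 (5.24 to 6.34). Their intervals overlap, which does not decide whether the medians differ. Peaks of the strongest decile made up 7.58% of the left segment (41 peaks), 9.81% of the middle (71) and 10.5% of the right (66). Covered length was 7.33% on the left, 10.7% in the middle and 9.38% on the right. The segments thus differed in how many peaks they held more than in how wide those peaks were.

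Single bins stood out in different ways. The fullest 1 Mb bin, from 8000001 to 9000000, held 182 peaks with a median width of 338.5 bp and 13 of the strongest decile. The bin from 5000001 to 6000000 followed with 177 peaks and 18 of the strongest decile, and that from 7000001 to 8000000 with 155 and 18. The most covered one, from 6000001 to 7000000, was another: its 139 peaks covered 12.3% of the length and had a median width of 509 bp, while every other full bin of III had a median between 316 and 401 bp. It also held the most wide peaks, 16 of at least 2 kb, and 6 narrower than 100 bp. Number and covered length therefore peaked in different places on III.

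At the finer scale the fullest bin of 250 kb, from 8750001 to 9000000, held 57 peaks, and that from 9750001 to 10000000 held 52 and had 18.6% of its length in peaks. The emptiest, from 1250001 to 1500000, held 10, followed by 17 between 250001 and 500000 and 18 in the first 250 kb. No full 250 kb bin of III held fewer than 10 peaks, whereas 6 of 61 did on II, 6 of 69 on IV and 21 of 83 on V. The mean count per bin was 34.4 on III, 28.7 on II, 27.3 on IV and 17.1 on V. A fixed cutoff of 10 therefore also reflects density. A bin with few peaks was not always weak: the 10 peaks of the emptiest bin had a median strength of 9.12, the highest of the 55 bins, and included one of 253.9. Of the 55 bins, 6 held no peak of the strongest decile and 12 held no peak of at least 2 kb.

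The strongest peak on III, from 3863862 to 3873773, was also its widest, at 9912 bp, with a strength of 290.5 and rank 7 in the whole list. A narrower peak of 580 bp and strength 85.7 ended 328 bp to its left, so that both spanned 10.8 kb. The second strongest, from 4491012 to 4496536 (strength 281.4), was followed after 306 bp by a 7229 bp peak of strength 161.7, and the pair extended over 13.06 kb. Both lie near the border of the left and middle segments, at 28.1% and 32.6% of the span. What genes lie there was not analysed here.

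The other 8 of the 10 strongest lay between 10.3% and 75.1% of the span, some of them close together. The third, from 10337025 to 10339816, had a strength of 264.2 over 2792 bp, and the sixth, from 10214126 to 10217626, had 231.5 over 3501 bp some way to its left. The fourth, from 1418372 to 1420438, reached 253.9 over only 2067 bp. It stood in the sparse left end, in the emptiest 250 kb bin. The fifth, from 7973061 to 7977660, had 251.1 over 4600 bp, and 260 bp to its right began a peak of 3336 bp with strength 73.3. Peaks from 5023728 to 5025724, from 5228020 to 5230959 and from 5874161 to 5877048 had strengths of 229.8, 226.2 and 224.4 and lay within the same bin of 1 Mb. The remaining one, from 3795848 to 3802245, was 6398 bp wide with a strength of 224.7. Of these 10 peaks, 4 lay in the left segment, 4 in the middle and 2 on the right, and among the 100 strongest on III the numbers were 23, 36 and 41.

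The widest peaks were mostly other peaks. Of the 10 widest and 10 strongest, 1 was shared, while of the 100 widest and 100 strongest 74 were. After the 9912 bp peak came 9766161 to 9775409 (9249 bp, strength 57.2) and 9699824 to 9708815 (8992 bp, strength 65.2). Both lie within a stretch of 75.6 kb and together hold 18.2 kb of covered length. The next were 2872921 to 2880783 (7863 bp, 69.3), 13616719 to 13624566 (7848 bp, 108.8) and 8443382 to 8450723 (7342 bp, 214.8). The peak from 6952030 to 6959281 was 7252 bp wide with a strength of 41.7, the lowest of the 10. It lay in the 1 Mb bin of long peaks. The last 3 were the 7229 bp peak beside the second strongest, 10203148 to 10210322 (7175 bp, 63.3) and 5008526 to 5014984 (6459 bp, 80.8). The widths of the 10 thus ranged from 6459 to 9912 bp while their strengths ranged from 41.7 to 290.5.

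Some peaks departed from the relation of width and strength, and these were picked after their values were seen. The strongest peak under 1 kb, from 12250151 to 12250839, was 689 bp wide with a strength of 178.8, rank 17 on III. It was one of 4 peaks under 1 kb among the 100 strongest, of which 83 were at least 2 kb. In the other direction, the weakest peak of at least 2 kb, from 6595726 to 6598527, was 2802 bp wide with a strength of 2.76. It began 265 bp after a peak of 2310 bp with a strength of 10.03, the next weakest of that width.

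Neighbouring peaks on III were separated by a median of 1933 bp (1769 to 2111), whereas II had 1994 bp, IV had 1792 bp and V had 2768 bp. The quartiles on III were 622 and 6511 bp. The shortest gap was 200 bp, as in the whole list. The typical gap of III thus resembled those of II and IV, and its higher density came with fewer long gaps. Gaps of at least 50 kb numbered 30 on III, 45 on II, 55 on IV and 95 on V, and took up 16.2% of the span of III, 25.1% of II, 26.5% of IV and 45.05% of V. Gaps of at least 100 kb numbered 4, 10, 13 and 35.

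**Figure D4:**
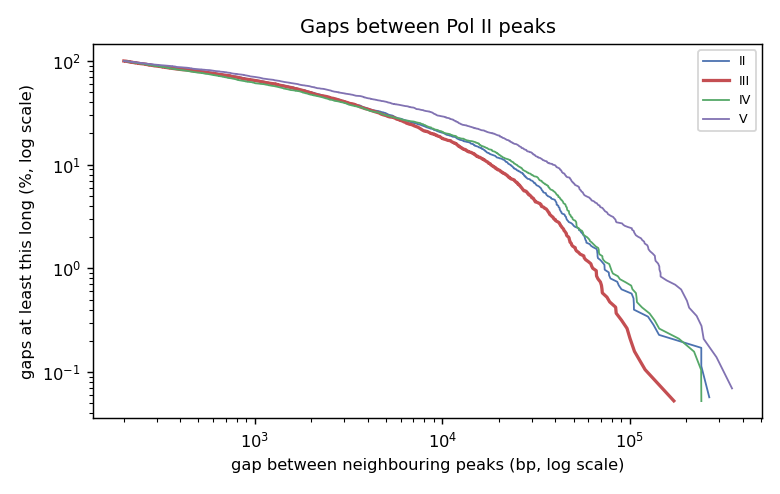
Percentage of gaps between neighbouring peaks that are at least as long as the value on the horizontal axis, for II, III, IV and V, both axes on a log scale. The curves of II, III and IV run together at short gaps, and that of III ends first, at 171 kb.

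The longest stretches without a peak lay mostly near the left end of III. The longest, from 1237692 to 1409049, was 171 kb long and ranked 20 among the 10725 gaps of the list. The longest gaps of II, IV and V were 265, 240.2 and 350.1 kb, and that of I was 113180 bp. A peak of 49 bp with strength 2.98 lay on the left edge of that stretch and one of 282 bp with strength 9.64 on the right edge, shortly before the fourth strongest peak. The next were 912395 to 1032800 (120.4 kb), 9963450 to 10069119 (105.7 kb), 1677457 to 1777490 (100.03 kb) and 2198331 to 2294752 (96.4 kb). Of these 5 stretches, 4 lay between 7.06% and 16.3% of the span, and the other one at 72.7%. Gaps of at least 50 kb numbered 14 in the left segment, 9 in the middle and 7 on the right. The left segment nevertheless had the shortest median gap, 1720 bp, against 1909 bp in the middle and 2061 bp on the right. Of its gaps 38.3% were under 1 kb, compared with 33.6% in the middle and 34.1% on the right, so that short and very long gaps were both most frequent there.

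When peaks less than 1 kb apart were put together, the 1896 peaks of III formed 1231 groups, or 89.4 per Mb, compared with 75.2 on II, 66.8 on IV and 48.5 on V. Single peaks numbered 862, 45.5% of all. Groups of at least 5 peaks numbered 30 and held 10.3% of the peaks on III, against 10.05% on II, 15.4% on IV and 8.07% on V. The largest on III had 13 peaks between 13708442 and 13724687, near the right end, and peaks filled 71.8% of its 16.2 kb. The next had 11 peaks between 1583249 and 1594407 and filled 54.7% of its 11.2 kb, with a highest strength of 17.1. A group of 10 between 3789731 and 3810217 filled 84.05% of 20.5 kb and held the ninth strongest peak. The group of 11 peaks thus lay in the sparse left end. How the 30 groups of at least 5 peaks were placed along III was not analysed.

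Close neighbours were common on III. A peak less than 1 kb away was present for 1034 of all 1896 (54.5%), for 72 of the 100 strongest and for 49 of the 100 weakest. It was present for 6 of the 10 strongest and 9 of the 10 widest. Whether such neighbours are pieces of one enriched stretch was not tested.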

How the data were processed

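The input was 1 deposited list of Pol II peaks, called by the authors with PeakSeq on WormBase build WS190, per the file headers and source field, and named as combined over samples. Its values are positions and 1 q-value per peak as deposited by the authors. PeakSeq version, aligner and read filters are not given in the sources used here, and depth is unknown. The largest q-value was 0.00998, and no neighbours lay closer than 200 bp.

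Strength was −log10 of the deposited q-value, and width counted both end bases. Midpoints placed the peaks in full bins of 1 Mb and 250 kb and in 3 equal segments of the span, which ran to the last listed end. Intervals for shares, ratios and medians are exact binomial (95%). Regions named are the 10 strongest and 10 widest peaks, 5 longest gaps, and 3 fullest and 3 emptiest bins per size, plus those said to be chosen after their values were seen. Chromosome and peak sets were chosen with earlier results of these data known. Routines were tested on simulated lists. Alternatives were a stricter list, joined peaks, covered length, a minimum width, other segments and other bins. Gene annotation and sequence of WS190 were not used here. The tools were scipy 1.17.1, pandas 2.3.3, numpy 2.4.6 and matplotlib 3.10.9 under Python 3.11.15.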

Additional observations from a re-analysis of the deposited data

How the results depend on the processing

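The density ratios of III to II, IV and V stayed above 1 under all 4 alternatives run for each. Those that left the counting interval were, for V, 2.31 in the 5366 peaks with the smallest q-values and 1.46 in covered length, and for IV 1.09 in covered length. The ratio of middle to outer segments stayed between 1.24 and 1.33 over its 6 alternatives. Evenness depended on the measure. The coefficient of variation on III divided by the lowest of II, IV and V was 0.678 for peak counts, 0.775 in the stricter list and 0.541 with bins shifted by 500 kb, but turned to 1.06 in covered length, and the cause was not tested. On III itself the coefficient of 0.192 became 0.272 in the stricter list, 0.281 in covered length, 0.310 in bins of 250 kb, 0.157 with shifted bins and, by settings added after seeing the data, 0.172 with counting variance taken off and 0.141 beyond the first 3 Mb. Settings that remove or join peaks shift levels by construction. The stricter list gave 71.0 peaks per Mb, a median width of 635.5 bp, 7.36% covered and a longest gap of 192.5 kb; joining peaks closer than 500 bp gave 108.8 per Mb and 403 bp; peaks of at least 100 bp gave 124.7 per Mb and a median strength of 6.29. III held 19% of the strongest 100 peaks against 16.6% of the strongest decile. No paired analysis was possible because the single list is one of combined samples, so that neither replicate could be matched or left out. Depth is unknown here, so its effect on the listed peaks was not tested.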

Other observations

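How the number of peaks in a bin went with their strength differed in size between the chromosomes, given here as a description over bins of 1 list. Over the 13 full bins of 1 Mb on III, the number of peaks had a Spearman's rho of 0.40 with the median strength and of 0.53 with the number of peaks of the strongest decile. On II, over 15 bins, the same values were 0.57 and 0.86, on IV, over 17 bins, 0.31 and 0.51, and on V, over 20 bins, 0.61 and 0.77. Peaks of the strongest decile are part of the number they were compared with, so a positive rho is built into the second value. In bins of 250 kb the rho with the median strength was lower on each. It was 0.23 on III, 0.49 on II, 0.06 on IV and 0.42 on V. The bin of III from 10000001 to 11000000 had the highest median strength, 7.25, with 124 peaks, whereas that from 8000001 to 9000000 had the most peaks, 182, with a median strength of 5.56. The bin from 11000001 to 12000000 held 136 peaks, of which 6 were of the strongest decile, and its neighbour from 12000001 to 13000000 held 121, of which 16 were.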
